A study of Mus musculus with 6 samples.

Results

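The genes described are the cytochrome P450 genes of families 1 to 4, taken as every gene entry whose symbol is Cyp, a family number from 1 to 4, a lower-case subfamily letter and a final number. There were 75 such genes among 24346 entries. A gene was called detected when it reached at least 1 FPKM (fragments per kilobase of transcript, scaled by the total of mapped fragments) in at least 2 libraries. By that rule 27 of the 75 were detected and 48 were not. Another 11 symbols of these families, mostly with a suffix, fell outside the pattern and were not counted.

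The libraries were made from colon epithelial cells of untreated wild-type C57BL/6J mice. Each of the 3 regions, the proximal, middle and distal colon, had 1 male and 1 female library, which made 6 in all. No group carried a transgene, a deletion or a treatment. Neither the number nor the age of the mice behind a library is labelled, nor whether 1 animal gave several regions. The p-values below therefore describe spread among these 6 libraries, which may be technical in part.

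Cytochromes P450 are haem enzymes of the endoplasmic reticulum that insert oxygen into lipophilic substrates, using electrons passed on by the reductase Por. Families 1 to 3 hold most enzymes that act on drugs and dietary compounds, and several Cyp2c and Cyp2j enzymes also oxidise arachidonic acid, while family 4 enzymes mainly hydroxylate fatty acids and eicosanoids. Many of the genes arose by local duplication and stand in clusters of close relatives. In the gut these enzymes act on compounds absorbed from the lumen, and their genes are controlled by ligand-activated receptors such as Nr1i2 (PXR), Nr1i3 (CAR) and Ahr.

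Because the Cyp2c genes of 1 cluster moved in opposite directions along the colon, the bases just before their starts are shown first, from RefSeq on GRCm38.p6 (mm10), 5′ to 3′ on the gene's own strand. Capitals mark exact matches to any of 7 short motifs that were searched on both strands. The stretch for Cyp2c55 stops before the gene's annotated span and leaves out 79 of the 250 bases searched.
Cyp2c55, chr19:39006769-39006939, plus strand: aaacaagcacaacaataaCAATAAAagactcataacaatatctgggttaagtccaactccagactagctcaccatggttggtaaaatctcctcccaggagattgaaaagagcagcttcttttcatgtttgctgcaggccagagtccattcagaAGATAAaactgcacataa
Cyp2c65, chr19:39060756-39061005, plus strand: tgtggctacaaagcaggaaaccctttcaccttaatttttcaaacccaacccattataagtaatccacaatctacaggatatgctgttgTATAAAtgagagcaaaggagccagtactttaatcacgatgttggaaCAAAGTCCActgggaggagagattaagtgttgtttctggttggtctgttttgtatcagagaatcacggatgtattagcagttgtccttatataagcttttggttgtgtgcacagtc
Cyp2c66, chr19:39113648-39113897, plus strand: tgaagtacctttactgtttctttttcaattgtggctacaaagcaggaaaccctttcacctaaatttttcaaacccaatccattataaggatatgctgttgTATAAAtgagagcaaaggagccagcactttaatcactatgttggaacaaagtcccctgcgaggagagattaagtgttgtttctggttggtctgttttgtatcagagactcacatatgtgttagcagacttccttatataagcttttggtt
Cyp2c68, chr19:39741102-39741351, minus strand: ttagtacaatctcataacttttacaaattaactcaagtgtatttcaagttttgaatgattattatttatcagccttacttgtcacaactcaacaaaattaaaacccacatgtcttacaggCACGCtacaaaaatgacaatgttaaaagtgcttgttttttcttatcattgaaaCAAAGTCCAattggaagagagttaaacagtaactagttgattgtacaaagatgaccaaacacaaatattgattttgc
Cyp2c69, chr19:39886770-39887019, minus strand: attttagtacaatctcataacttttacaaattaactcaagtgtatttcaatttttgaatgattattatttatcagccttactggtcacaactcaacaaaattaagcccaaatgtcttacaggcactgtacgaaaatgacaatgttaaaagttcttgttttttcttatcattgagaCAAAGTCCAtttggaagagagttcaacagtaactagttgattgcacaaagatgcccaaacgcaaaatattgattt
The first 3 genes were lower in the distal than in the proximal colon, Cyp2c68 was higher, and Cyp2c69 was not called. The windows of Cyp2c65 and Cyp2c66 were 94.1% identical over 221 aligned bases. Those of Cyp2c68 and Cyp2c69 were 94.3% identical over 246 aligned bases. All other pairs among the 5 stood between 63.5% and 69.0%. The letters CAAAGTCCA, a site type bound by HNF4, stood in the windows of Cyp2c65, Cyp2c68 and Cyp2c69, and in 0.384% of all 32841 windows of 250 bases. They were thus found before a gene that fell and before a gene that rose. Cyp2c66, the near copy of Cyp2c65, held no exact match to them. TATAAA, the core of a TATA box, was found in 12.4% of all windows and in those of Cyp2c55, Cyp2c65 and Cyp2c66, in Cyp2c55 within the bases not printed. The CDX and HOX13 type letters CAATAAA, in 4.21% of all windows, stood before Cyp2c55, and the GATA type letters AGATAA, in 9.99%, stood there too. The Ahr core GCGTG, in 28.2% of windows, was found before Cyp2c68. A motif match is a description of letters, and no binding was measured.

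The steps between the lowest FPKM values put the depth at about 7.86 to 9.92 M fragments per library, so 1 FPKM of a 2000-base transcript stood for 14.1 to 17.9 fragments. Between 23 and 27 of the genes reached 1 FPKM in any single library. Epithelial markers summed to 8147 to 9593 FPKM with 0 of 7 called between any regions, B and plasma cell markers to at most 1.44 FPKM, and endothelial markers to at most 3.21 FPKM. T cell and intraepithelial lymphocyte markers summed to 88.6, 12.8 and 13.3 FPKM in the male proximal, middle and distal libraries and to 39.8, 23.2 and 17.0 FPKM in the female ones. The libraries did not pair simply by region. Across 11815 genes, the male middle library correlated with the female proximal library at 0.976 and with the female middle library at 0.975, while the male distal library correlated at 0.982 with the female middle library and at 0.987 with the female distal library.

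The proximal colon carried the largest P450 signal, and most of it was Cyp2c55, an enzyme that oxidises arachidonic and linoleic acid. Together the 75 genes summed to 3943, 1765 and 1505 FPKM in the male proximal, middle and distal libraries and to 2199, 1331 and 1153 FPKM in the female ones. Cyp2c55 supplied 67.1%, 50.6% and 26.8% of that sum in the male libraries and 53.2%, 17.1% and 8.46% in the female ones. In the male proximal library Cyp2c55 ranked 13 among all entries by FPKM, and in the female distal library it ranked 927. Without Cyp2c55 the sum stood between 872 and 1298 FPKM in all 6 libraries, with no common order of the regions in the 2 sexes. The 9 Cyp2d genes supplied the counterpart. They summed to 126, 276 and 525 FPKM in the male proximal, middle and distal libraries and to 200, 446 and 468 FPKM in the female ones. Their share rose more steeply, because the total fell. It was 3.19%, 15.6% and 34.9% in the male libraries and 9.12%, 33.5% and 40.6% in the female ones. Cyp2d34 was the leading member in the female middle and distal libraries, and Cyp2c55 led in the other 4.

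**Figure D1:**
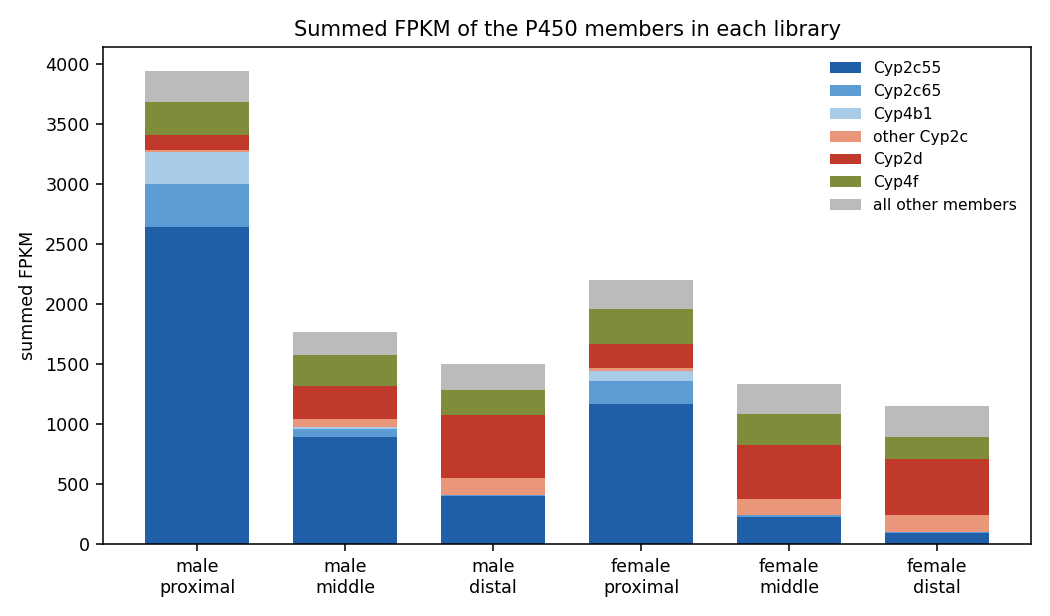
Summed FPKM of the P450 genes in each of the 6 libraries, stacked by group of genes on a linear axis from 0. The sum runs from 1153 FPKM in the female distal library to 3943 FPKM in the male proximal library, and the Cyp2c55 part shrinks from proximal to distal in both sexes.

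Distal against proximal colon asks how the repertoire differs between the ends of the organ. Of the 27 detected genes, 7 rose toward the distal colon, 8 fell and 12 were not called, by limma on log2(FPKM + 1) with region and sex in the model and a Benjamini-Hochberg adjusted p under 0.05 over 11815 genes. That is 55.6% of the detected genes, where 14.1% of all tested genes were called. By direction, the background was 6.47% higher and 7.64% lower. The median difference was -0.10 for the 27 genes and 0.01 for all genes, and the median size of the difference, without its sign, was 1.13 against 0.21. The added 1 shrinks differences of genes near or under 1 FPKM. In 24 of the 27 the 2 distal libraries did not overlap the 2 proximal ones, against 60.3% of all genes. Cyp2c66 and Cyp3a44 were detected through the proximal libraries alone, so their difference was part of how they came to be counted. Fewer cells that express a gene and less RNA per cell cannot be told apart in these samples.

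**Figure D2:**
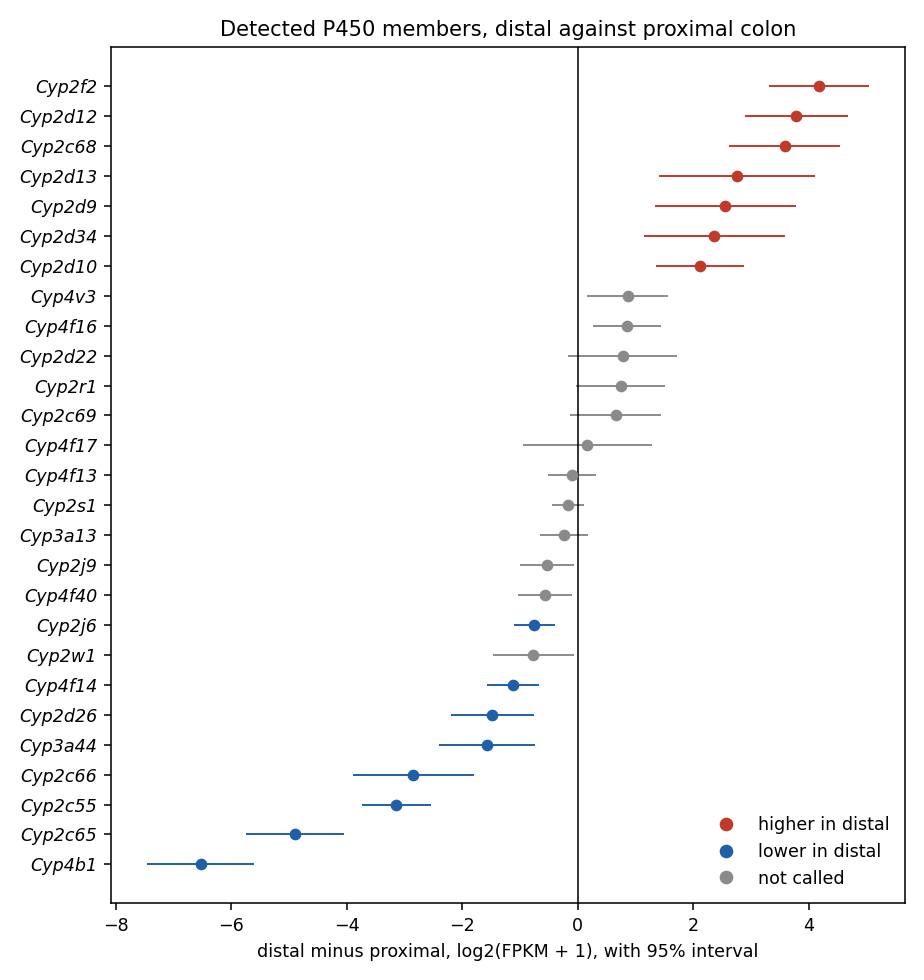
Distal minus proximal difference of each detected P450 gene in log2(FPKM + 1), with its 95% interval, coloured by call. The differences run from -6.53 for Cyp4b1 to 4.18 for Cyp2f2, and the 12 genes not called lie between -0.78 and 0.86. Cyp2c66 and Cyp3a44 are listed at 0 in both distal libraries, so their plotted sizes depend on the added 1.

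The genes that fell were led by Cyp4b1, a fatty acid hydroxylase known for activating lung toxicants (chr4:115624698-115647721, minus strand). It stood at 269.5, 12.6 and 0.838 FPKM in the male proximal, middle and distal colon, against 85.2, 2.79 and 0.483 FPKM in the female. Both sexes thus went from one of the more abundant P450 genes to below 1 FPKM. The proximal value was 322 times the distal one in the male libraries and 176 times in the female ones. The difference was -6.53 on the log2(FPKM + 1) scale (SE 0.37, limma adjusted p = 0.0018). Of its transcript's 50-base stretches, 10.3% also occurred in another gene, most often a Cyp4b1 pseudogene.

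Cyp2c55 (chr19:39006940-39042690, plus strand) stood at 2645, 893 and 403 FPKM from male tissue and 1169, 228 and 97.6 FPKM from female tissue, in the same order of regions. Every step toward the distal end was a fall in both sexes, and within each region the female library was the lower one. The fall was 6.56-fold in the male and 12.0-fold in the female libraries. The difference was -3.14 (SE 0.24, limma adjusted p = 0.0027). Almost none of its transcript, 0.51% of the 50-base stretches, was shared with another gene.

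Its neighbour Cyp2c65, an arachidonic acid oxidising enzyme of the gut, stood at 354, 70.9 and 9.35 FPKM in the male libraries and at 188, 17.3 and 6.37 FPKM in the female ones. The proximal value was 37.8 times the distal one in the male libraries and 29.5 times in the female ones (difference -4.89, SE 0.34, limma adjusted p = 0.0023). Cyp2c66, the next gene along, stood at 11.5, 0.176 and 0 FPKM from male tissue and 3.13, 0 and 0 FPKM from female tissue. It was called lower (limma adjusted p = 0.013), and as it is listed at 0 in both distal libraries no fold is given. Cyp2c65 and Cyp2c66 shared 20.6% and 20.4% of their 50-base stretches, nearly all with each other, so reads may have been divided between them.

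Cyp3a44, of the drug-oxidising Cyp3a subfamily, stood at 3.26, 0.0714 and 0 FPKM from male tissue and 1.08, 0.0575 and 0 FPKM from female tissue. It was called lower (limma adjusted p = 0.036), it is listed at 0 in both distal libraries, and 26.4% of its 50-base stretches occurred in other genes. Cyp4f14, which hydroxylates leukotrienes and vitamin E, was nearly level until the middle colon, at 124, 140.5 and 70.9 FPKM in the male libraries and 167, 126 and 60.2 FPKM in the female ones. Its distal libraries were the lowest of the 6 (difference -1.13, SE 0.18, limma adjusted p = 0.016). Cyp2d26 had its step earlier. It stood at 71.2, 17.5 and 17.2 FPKM from male tissue and 43.7, 24.8 and 21.9 FPKM from female tissue (difference -1.48, SE 0.29, limma adjusted p = 0.028). The smallest of these falls was that of Cyp2j6, an arachidonic acid epoxygenase. It stood at 32.2, 18.7 and 15.7 FPKM from male tissue and 23.9, 17.5 and 16.4 FPKM from female tissue (difference -0.75, SE 0.14, limma adjusted p = 0.024).

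The genes that rose toward the distal colon were 1 Cyp2f, 1 Cyp2c and 5 Cyp2d genes. Cyp2f2, known from the airway's club cells for oxidising naphthalene (chr7:27119955-27133660, plus strand), stood at 0.231, 8.55 and 32.6 FPKM in the male proximal, middle and distal libraries. The female libraries held 2.63, 32.5 and 42.4 FPKM. Its level rose at every step in both sexes, and the female value exceeded the male one in each region. The distal value was 141 times the proximal one in the male libraries, where the proximal level was below 1 FPKM, and 16.2 times in the female ones (difference 4.18, SE 0.35, limma adjusted p = 0.0032). None of its 50-base stretches occurred in another gene.

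Cyp2c68 (chr19:39688836-39741101, minus strand) stood at 4.78, 56.1 and 126 FPKM from male tissue and 19.5, 116 and 133 FPKM from female tissue. The distal libraries were close to each other, while the proximal ones differed between the sexes, so the rise was 26.3-fold in the male and 6.82-fold in the female libraries. The difference was 3.58 (SE 0.38, limma adjusted p = 0.0060). Its sequence is less separate, since 43.3% of its 50-base stretches occurred in other genes, most in Cyp2c40, which was not detected.

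The Cyp2d genes, relatives of the human drug-metabolising CYP2D enzymes, rose as a block of 5. Cyp2d34 (chr15:82615963-82620956, minus strand), the most abundant of them, stood at 27.3, 171 and 313 FPKM from male tissue and 109, 259 and 262 FPKM from female tissue (difference 2.36, SE 0.49, limma adjusted p = 0.032). The female middle and distal libraries were level, while the male ones went on rising, and the female proximal library stood well above the male one.

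Cyp2d12 had the steepest rise of the 5, from 1.32 to 8.31 and 31.6 FPKM in the male and from 2.59 to 35.7 and 47.2 FPKM in the female libraries (difference 3.78, SE 0.36, limma adjusted p = 0.0043). Cyp2d10 stood at 8.12, 20.9 and 56.3 FPKM from male tissue and 15.9, 44.3 and 49.3 FPKM from female tissue (difference 2.11, SE 0.30, limma adjusted p = 0.012). Both rose at each step in both sexes. Cyp2d9, known as a steroid hydroxylase of the male liver, stood at 1.64, 14.1 and 32.5 FPKM from male tissue and 8.64, 27.7 and 25.1 FPKM from female tissue (difference 2.55, SE 0.49, limma adjusted p = 0.026). Cyp2d13, a transcribed pseudogene in RefSeq, stood at 2.94, 38.1 and 60.5 FPKM from male tissue and 14.02, 44.4 and 43.1 FPKM from female tissue (difference 2.76, SE 0.54, limma adjusted p = 0.028). In these latter genes the female distal library was slightly below the female middle one. Shared 50-base stretches made up 40.5% of Cyp2d10, 29.0% of Cyp2d9, 7.11% of Cyp2d12 and 5.14% of Cyp2d34. The values of Cyp2d10 and Cyp2d9 are therefore uncertain where the counting split reads. For Cyp2d13 no transcript sequence was found, so its sharing was not counted and its values may be uncertain too.

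**Figure D3:**
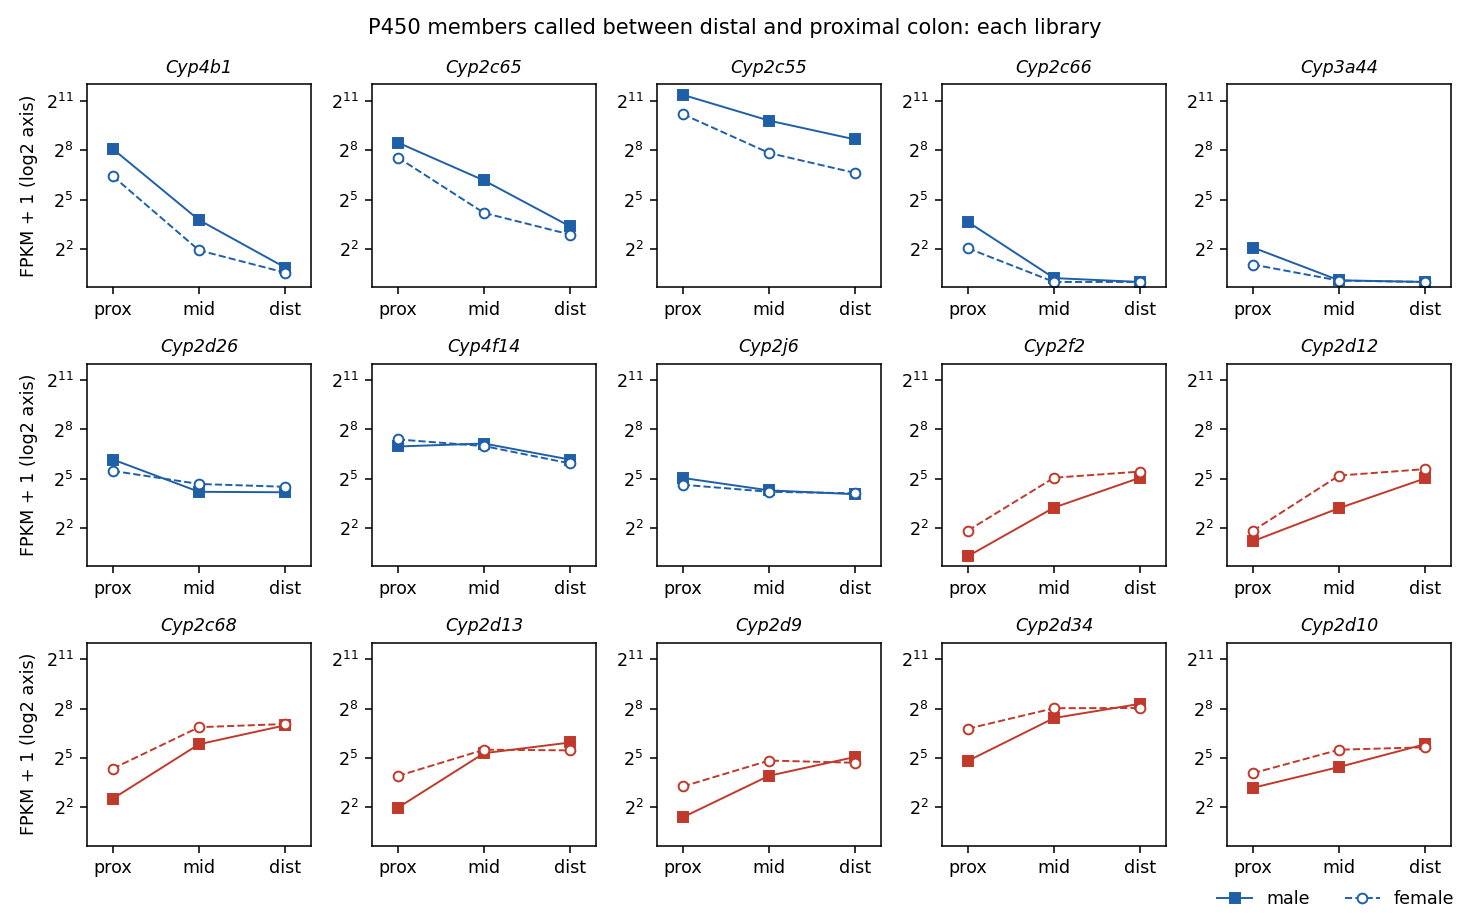
FPKM + 1 of the 15 P450 genes called between distal and proximal colon, on a log2 axis, with 1 panel per gene and 1 line per sex across the 3 regions; each point is 1 library. Cyp4b1 falls from 269.5 to 0.838 FPKM in the male libraries, Cyp2f2 rises from 0.231 to 32.6 FPKM, and the female line of each lies nearer to its distal level already in the proximal colon.

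Position within the 2 clusters separated the directions. The Cyp2c cluster on chromosome 19 spanned 1180 kb (chr19:39006940-40187286) with 14 of the 15 Cyp2c genes, of which 5 were detected. The 3 that fell, Cyp2c55, Cyp2c65 and Cyp2c66, were adjacent at its low-coordinate end. Cyp2c68 and Cyp2c69 lay farther along, on the opposite strand. In the Cyp2d cluster on chromosome 15, which spanned 424 kb (chr15:82370527-82794452) with all 9 Cyp2d genes, 7 were detected. The 5 that rose were the inner ones. The outer ones were Cyp2d22, not called, and Cyp2d26, which fell. Cyp2d11 and Cyp2d40, which lie between detected genes, reached at most 0.145 and 0.124 FPKM. Elsewhere 8 Cyp4f genes lay within 495 kb on chromosome 17 with 5 detected and only Cyp4f14 called, while Cyp4b1 was the 1 detected gene of 7 in the Cyp4a, Cyp4b and Cyp4x cluster on chromosome 4. These positions were compared after the values were seen and were not tested.

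**Figure D4:**
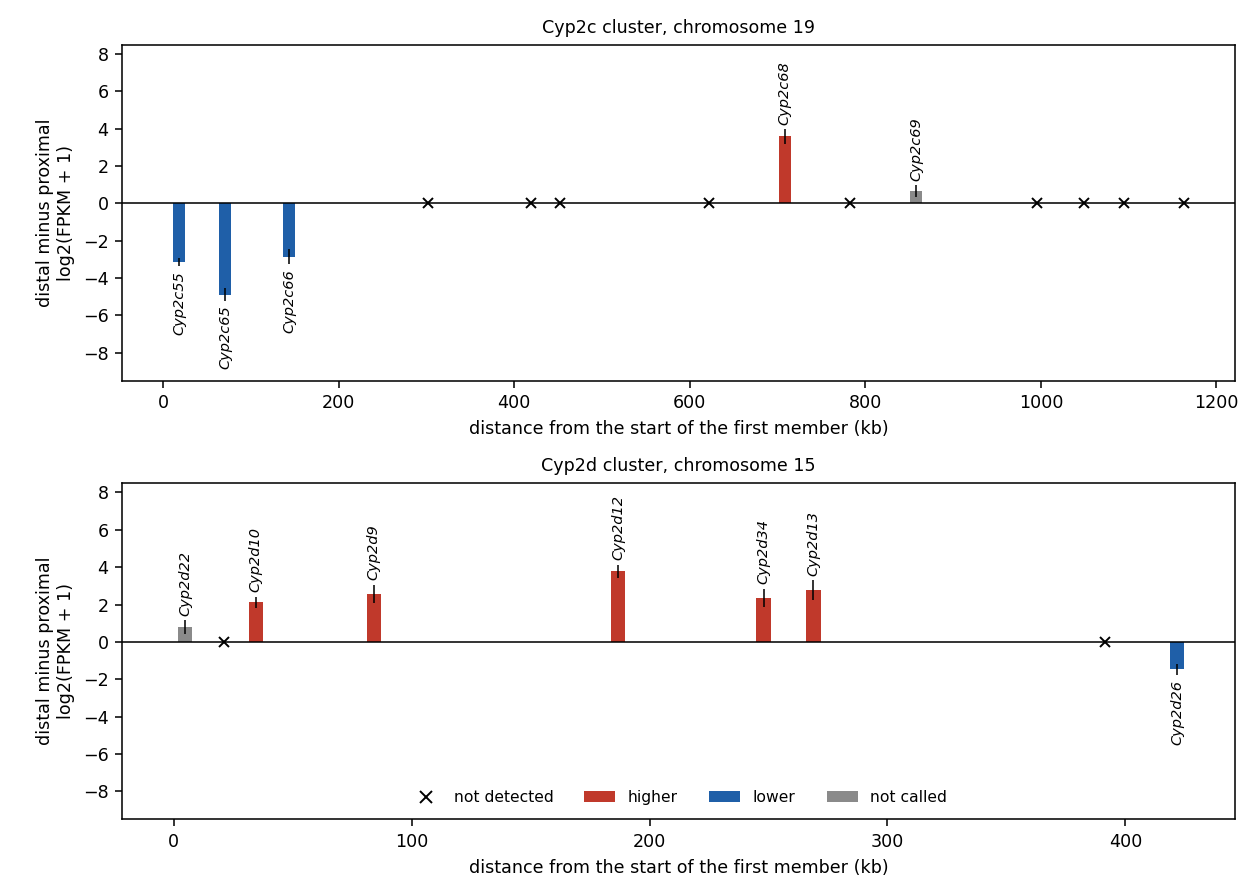
Distal minus proximal difference, in log2(FPKM + 1) with its standard error, against distance in kb from the start of the first gene of the Cyp2c cluster and of the Cyp2d cluster; crosses are genes not detected. The 3 genes that fell sit together at the start of the Cyp2c cluster, and the 5 that rose sit between Cyp2d22 and Cyp2d26. The size drawn for Cyp2c66, listed at 0 in both distal libraries, depends on the added 1.

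Among the 12 genes that were not called were 4 of the 10 most abundant. Cyp3a13, the main Cyp3a gene detected here, stood at 121, 78.7 and 87.2 FPKM from male tissue and 105, 106 and 104 FPKM from female tissue (difference -0.24, 95% interval -0.66 to 0.17, limma adjusted p = 0.40). Cyp2s1, an epithelial P450 known as a target of Ahr, varied least, at 76.9, 75.9 and 70.2 FPKM from male tissue and 87.4, 71.8 and 75.2 FPKM from female tissue (difference -0.17, 95% interval -0.44 to 0.10, limma adjusted p = 0.36). These 2 intervals exclude the sizes seen for Cyp2c55 and Cyp2d34. Cyp4f13 stood at 52.1, 37.0 and 45.2 FPKM from male tissue and 45.7, 51.2 and 45.8 FPKM from female tissue (difference -0.10, 95% interval -0.52 to 0.32, limma adjusted p = 0.75). Cyp4f40 stood at 76.6, 35.1 and 41.7 FPKM from male tissue and 48.2, 36.8 and 39.9 FPKM from female tissue (difference -0.57, 95% interval -1.04 to -0.09, limma adjusted p = 0.12). Its interval leaves out 0, but the p adjusted over all genes missed the threshold.

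The remaining 8 had lower levels and wider intervals. Cyp4f16 came nearest to a call, at 18.4, 36.7 and 47.5 FPKM from male tissue and 26.7, 46.7 and 35.0 FPKM from female tissue (difference 0.85, 95% interval 0.27 to 1.44, limma adjusted p = 0.072). Cyp2d22, often set beside human CYP2D6, ranged from 5.78 to 19.1 FPKM, and its interval of -0.16 to 1.72 included 0 and ended below 2.11, the smallest difference among the genes that rose. Cyp2c69 peaked in the middle colon of both sexes. It stood at 2.55, 11.1 and 7.94 FPKM from male tissue and 5.78, 12.8 and 5.65 FPKM from female tissue. Of its 50-base stretches 54.8% occurred in other genes, most in Cyp2c40 (46.3%). Cyp4v3, a fatty acid hydroxylase, ranged from 3.32 to 8.60 FPKM, and Cyp2w1, known from fetal gut and colon tumours, from 2.21 to 8.29 FPKM. Cyp4f17 ranged from 0.670 to 2.85 FPKM, Cyp2r1, which starts the activation of vitamin D, from 0.584 to 2.97 FPKM, and Cyp2j9 from 0.730 to 1.73 FPKM.

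The count for distal against proximal moved most without the male distal library, when 7 of the 27 and 334 of all genes were called, and Cyp2c66, Cyp2d13, Cyp2d26, Cyp2d34, Cyp2d9, Cyp2j6, Cyp3a44 and Cyp4f14 lost their calls. Some of these genes also lost theirs without the filter on low values, without either middle library or without the female distal library. Without the filter 56 P450 genes were tested and 10 were called, 9 of them among the 15. Of all genes 1193 were then called. With sex left out of the model 13 of the 27 and 1240 of all genes were called. Cyp2c55 (limma adjusted p = 0.077) and Cyp2d34 were not among the 13. Cyp3a44 missed the threshold under quantile normalization, and Cyp2j6 without the male proximal library. Cyp2c65, Cyp2c68, Cyp2d10, Cyp2d12, Cyp2f2 and Cyp4b1 were called in all 13 alternatives, and each of the 15 kept its sign wherever it was tested.

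Middle against proximal colon asks how early along the organ the levels differ. Of the 27 genes, 3 rose and 4 fell, or 25.9%, against 2.45% of all genes by the same limma test (1.19% higher and 1.25% lower). In 19 of the 27 the middle and proximal libraries did not overlap, against 43.8% of all genes. These were Cyp2f2 (difference 3.08, limma adjusted p = 0.026), Cyp2c68 (2.91, adjusted p = 0.031) and Cyp2d12 (2.68, adjusted p = 0.031) among those that rose. Those that fell were Cyp4b1 (-4.41, adjusted p = 0.023), Cyp2c65 (-2.84, adjusted p = 0.028), Cyp2c55 (-1.96, adjusted p = 0.028) and Cyp2c66 (adjusted p = 0.042). All 7 were also called between distal and proximal colon, a comparison that shares the proximal libraries. Cyp2c66 was detected through the proximal libraries alone, so its fall was part of how it came to be counted. The same limit holds for Cyp2c66 and Cyp3a44 among the 19 that did not overlap. Cyp2d34, at a difference of 1.92, was not called here (limma adjusted p = 0.11), nor was Cyp4f14 at -0.11 (adjusted p = 0.83). Without the female middle library no call held, among the 27 or over all genes. Without the female proximal library more genes were called, among the P450 genes and over all genes alike. With sex left out of the model 0 were called, and 0 without the filter on low values, when 24 and 4 of all genes were.

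Between distal and middle colon limma called 0 of the 27 genes, where 0.499% of all genes were called, 0.11% higher and 0.389% lower. Cyp2c65 came nearest (difference -2.05, limma adjusted p = 0.099), followed by Cyp4f14 (-1.02) and Cyp4b1 (-2.12) at an adjusted p of 0.11 each. In 14 of the 27 the distal and middle libraries did not overlap, against 39.7% of all genes. When either proximal library was left out more genes were called, among the P450 genes and over all genes alike. In both sexes Cyp2c68, Cyp2d10, Cyp2d12, Cyp2d34 and Cyp2f2 stood in rising order from proximal to middle to distal, and Cyp2c55, Cyp2c65, Cyp2d26, Cyp2j6, Cyp3a44 and Cyp4b1 in falling order. These are 18.5% and 22.2% of the detected genes, beside 11.3% of all genes in each direction. Cyp3a44 was detected through the proximal libraries alone, so its falling order was set in part by the filter.

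Between female and male libraries, taken over the 3 regions, limma called 0 of the 27 genes and 0.0423% of all genes. Of all genes, 0.00846% were higher and 0.0339% lower in the female libraries. Of the 27, 6 had an unadjusted p under 0.05. The share of all genes at that unadjusted p was not counted, so the 6 have no background to be read against. Cyp2c55 had the lowest adjusted p, at a difference of -1.73 (SE 0.19, 95% interval -2.21 to -1.24, limma adjusted p = 0.19). The other 5 were Cyp2f2 (1.25, limma adjusted p = 0.39), Cyp4b1 (-1.27, adjusted p = 0.39), Cyp2c65 (-1.12, adjusted p = 0.40), Cyp2d12 (1.06, adjusted p = 0.42) and Cyp2c68 (0.98, adjusted p = 0.44). In each of the 6 the sign was that of the distal against proximal difference. For these genes the female library thus stood on the distal side of the male one in every region, and the correlations of whole libraries above placed the male middle library about as near to the female proximal as to the female middle one. With 1 library per sex and region, a difference between the sexes and a difference in where the tissue was cut cannot be told apart.

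The proteins that P450 enzymes depend on were mostly not called. Of 8 redox partners and haem-handling proteins, 2 were lower in the distal than in the proximal colon and 0 higher, with a median difference of -0.21 beside 0.01 for all genes. The shares of all tested genes to read this and the next lists against are 7.64% lower and 6.47% higher. They were Por, the electron donor (132.9, 92.9 and 81.1 FPKM from male tissue and 106, 64.7 and 71.6 FPKM from female tissue, difference -0.63, limma adjusted p = 0.025), and Pgrmc1, a haem-binding partner (-0.84, adjusted p = 0.020). Of 12 genes of haem synthesis and breakdown, 1 was lower, a share near that of all genes, with a median of -0.02. It was Alas1, the rate-limiting enzyme of haem synthesis outside red cells. Alas1 stood at 149, 95.4 and 34.3 FPKM from male tissue and 99.5, 47.9 and 41.8 FPKM from female tissue (difference -1.66, SE 0.29, limma adjusted p = 0.021). Between middle and proximal colon 0 of the 8 and 0 of the 12 were called by limma.

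Of 28 transcription factors known to control P450 genes, 24 passed the filter, and 2 of them were higher and 7 lower in the distal colon, with a median difference of 0.05. Nr1i3, the receptor CAR, stood at 1.86, 4.82 and 8.91 FPKM from male tissue and 2.68, 6.62 and 8.31 FPKM from female tissue (difference 1.57, limma adjusted p = 0.00618). It was called higher in the middle colon too. Cdx2, a homeobox factor of the intestine, had the largest fall of the list, from 135.5 to 93.6 and 17.3 FPKM in the male and from 125 to 43.9 and 7.25 FPKM in the female libraries (difference -3.42, limma adjusted p = 0.00277). Ppara, a fatty acid receptor that drives Cyp4a genes in liver, differed by -2.07 (adjusted p = 0.00979), the bile acid receptor Nr1h4 by -1.23 (adjusted p = 0.00894) and Pparg by -1.08 (adjusted p = 0.022). The other 3 that were lower had smaller differences. Among the 15 not called were Nr1i2 at 51.5 to 69.9 FPKM and Ahr at 3.31 to 4.89 FPKM. Vdr at 162 to 229.5 FPKM and Hnf4a at 192 to 237 FPKM were not called either.

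Of 20 genes that process eicosanoids and epoxides, 11 passed the filter, with 1 lower, again near the share of all genes, 0 higher and a median of -0.25. The 1 was Ltc4s, a leukotriene synthase also counted among tuft cell markers, at 4.85 FPKM in male and 1.45 FPKM in female proximal colon, and listed at 0 distally in both sexes (limma adjusted p = 0.020). Ephx2, the soluble epoxide hydrolase that acts on P450 products of arachidonic acid, differed by -0.64 and was not called (limma adjusted p = 0.21). Of the 19 P450 genes outside families 1 to 4, 4 passed the filter and Cyp20a1 was higher (0.88, limma adjusted p = 0.00933).

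Markers of other cells moved along the same axis. Between distal and proximal colon, 4 of 10 tested T cell and intraepithelial lymphocyte markers, 6 of 11 crypt and proliferation markers and 4 of 16 surface colonocyte markers were lower, with 0, 0 and 1 higher. Crypt and proliferation markers summed to 229 and 222 FPKM in the proximal and to 157 and 128 FPKM in the distal libraries. Of the surface colonocyte markers, Car1 stood at 19757 (male) and 6685 FPKM (female) in the proximal colon and at 1965 to 3402 FPKM in the other 4. The rest of that list summed to 13700.4, 16884 and 20842 FPKM in the male proximal, middle and distal colon and to 16701, 19788 and 21271 FPKM in the female, and the median difference of the whole list was 0.56. Goblet cell markers had 4 higher and 2 lower of 10. The part of these shifts in the P450 differences was not tested. Many of the genes described are known from liver, and hepatocyte markers summed to 4.87 and 7.61 FPKM in the proximal and 45.9 and 46.7 FPKM in the distal libraries. Nearly all of that was Ttr, at 42.9 and 44.1 FPKM in the distal libraries. Alb stayed at or below 1.31 FPKM, and Serpina1a, Fgb and Cyp7a1 were listed at 0 in all 6.

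The 48 genes not detected covered whole subfamilies, several of them prominent in liver. Neither of the Cyp1a genes nor Cyp1b1 was detected: Cyp1a1 reached at most 0.158 FPKM, and Cyp1a2 and Cyp1b1 were listed at 0 in all 6 libraries. The same held for all 4 Cyp2a, 5 Cyp2b and 5 Cyp4a genes, and for Cyp2e1, Cyp2g1, Cyp2t4, Cyp2u1 and Cyp4x1. The highest values in these groups were 0.522 for Cyp2a12, 0.300 for Cyp2b10, 1.24 for Cyp4a32, 0.596 for Cyp4a10, 0.574 for Cyp2e1, 0.194 for Cyp2t4, 0.236 for Cyp2u1 and 0.423 FPKM for Cyp4x1. Cyp4a31 and Cyp4a29 reached 0.167 and 0.0957 FPKM, Cyp2a5 and Cyp2a22 reached 0.165 and 0.126 FPKM, and Cyp2b23 reached 0.0508 FPKM.

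Single libraries held 4 of the undetected genes at 1 FPKM or more. Cyp3a25 was at 3.06 FPKM in the male proximal colon and 0.718 FPKM in the female, and Cyp4f15 was at 1.81 FPKM in the male proximal library and listed at 0 in the rest. Cyp4a32 reached its maximum in the male proximal library as well, while Cyp2c40 reached 1.18 FPKM in the male middle library. At the threshold, the second-highest values were 1.08 FPKM for Cyp3a44 and 1.58 FPKM for Cyp2j9 just inside, and 0.845 FPKM for Cyp2c67 and 0.718 FPKM for Cyp3a25 just outside. The maxima of the others were 0.937 FPKM for Cyp2c67, 0.653 for Cyp2c44, 0.419 for Cyp4f39, 0.337 for Cyp3a11, 0.336 for Cyp2c70 and 0.207 for Cyp4f37. Cyp2j13, Cyp4f18, Cyp3a59 and Cyp2j5 stayed below 0.1 FPKM. Besides Cyp1a2 and Cyp1b1, the genes listed at 0 in all 6 libraries were Cyp2a4, Cyp2b9, Cyp2b13, Cyp2b19, Cyp2c29, Cyp2c37, Cyp2c38, Cyp2c39, Cyp2c50, Cyp2c54, Cyp2g1, Cyp2j8, Cyp2j11, Cyp2j12, Cyp3a16, Cyp3a57 and Cyp4a14, which makes 19. An exact 0 can be a failed estimate for genes with near copies, so these are listed at 0 and not called absent.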

How the data were processed

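RNA from colon epithelial cells was sequenced as strand-specific polyadenylated libraries, per the labels' protocols. The authors deposited FPKM per gene, 1 value per gene and library. The submitters' processing notes name the mm10 genome and Cuffdiff 2.2.1, SAMtools 0.1.18, Bowtie2 2.2.8 and TopHat2 2.1.1. The sources used here do not give the settings, annotation, read length or any use of strand.

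No count test was applied, since FPKM are normalized values. They were tested as log2(FPKM + 1) for the 11815 of 24346 genes that reached 1 FPKM in 2 or more libraries. Region and sex were fitted together with limma 3.58.1 (R 4.3.3) over the 6 libraries with a variance trend, 2 residual and 3.49 prior degrees of freedom. p-values were adjusted by Benjamini-Hochberg over all kept genes at 0.05. An exact permutation test of 2 libraries against 2 cannot go below 0.333 and was not used, and a region by sex term leaves no residual degrees of freedom. In 20 simulated sets of 11815 genes for distal against proximal, limma recovered 87.5% of log2 changes of 1 and 99.45% of those of 2. Of its calls 8.43% were false, above the 5% that the threshold aims at. These shares describe each set of genes as a whole. The changes put in were rises in the distal libraries only, in a small part of the genes, with no difference between the sexes. Spread was drawn from the moderated fit, so the shares may not hold for these libraries. The SE of the P450 genes reached 0.54, for Cyp2d13, and neither share was tested for the P450 genes on their own.

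Positions came from RefSeq on GRCm38.p6, which matched all 75 genes, 1 of them through a synonym. RefSeq windows were found for 22 of the 27 detected genes, 26 windows in all, and motifs were searched in the 250 bases before each start. Sharing of 50-base stretches was counted in GENCODE transcripts, found for 26 of the 27. A comparison of proteins was planned and not made, and shared stretches were used in its place.

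Depth was estimated from the steps between low values, with an assumed fragment length of 200 bases, and is approximate. The genes and lists were chosen with earlier results of these data known. Values in every library were given for genes called between any regions and for the 10 of highest mean FPKM. Alternatives changed the pseudocount, filter, scaling, variance trend and sex term, or left out each library in turn. Of the called transcription factors, 1 is not reported here by name.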

Additional observations from a re-analysis of the deposited data

Results flagged for a closer look

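With 2 libraries per region, no group was large enough to test for a sample far from the others. In 18 cases the difference between 2 regions had opposite signs in the male and the female libraries, and 0 of the 18 were called. The difference between the sexes was not tested in any of them. Values are male minus female differences in log2(FPKM + 1). For distal against proximal, the sexes stood apart by 1.92 for Cyp4f17 (1.12 in male and -0.80 in female libraries), by 1.36 for Cyp2c69 and by -0.20 for Cyp4f13. For middle against proximal there were 7 cases. The widest was Cyp2d22 at -1.59 (-1.06 in male and 0.53 in female libraries), followed by Cyp4f17 at 1.26 and Cyp4v3 at -1.18. Cyp4f13 stood at -0.64, Cyp3a13 at -0.62, Cyp4f14 at 0.58 and Cyp2j9 at 0.17. For distal against middle there were 8. The widest was Cyp2d9 at 1.28 (1.14 in male and -0.14 in female libraries), and Cyp2r1 stood at 0.86, Cyp4f16 at 0.77, Cyp2d13 at 0.69 and Cyp4f17 at 0.66. Cyp4f13 stood at 0.44, Cyp2s1 at -0.18 and Cyp3a13 at 0.17. Several of these are of genes whose differences were near 0 in 1 sex.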

How the results depend on the processing

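Leaving out each library in turn, the number of genes called ran from 7 to 17 for distal against proximal, from 0 to 17 for middle against proximal, from 0 to 5 for distal against middle and from 0 to 1 for female against male, and the number detected from 25 to 27. The lowest count for middle against proximal came without the female middle library, when no gene of any kind passed limma's threshold. The number called over all genes also moved with the library left out. For middle against proximal, the 7 calls became 0 with no filter, 4 with no variance trend and 0 with sex left out. Over all genes these settings gave 4, 187 and 24 calls, against 289 in the main fit. For distal against middle, a pseudocount of 0.1 gave 1 call, and 70 over all genes. The fit reported already holds sex as a block over the regions, and with no replicate block the 15 calls for distal against proximal became 13.

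Signs with 1 library left out were followed for all 27 genes, wherever tested, in distal against proximal. In the other comparisons only chosen genes were followed. Of the differences followed, those that turned sign all belonged to genes not called in that comparison. For distal against proximal they ran from -0.51 to 0.025 for Cyp3a13, from -0.31 to 0.11 for Cyp4f13 and from -0.63 to 0.96 for Cyp4f17. The positive values of Cyp3a13 and Cyp4f13 came without the male proximal library, and the negative ones of Cyp4f17 without it (-0.63) or without the male distal one (-0.48). Among the genes followed for middle against proximal, Cyp4f14 ran from -0.42 to 0.20, and was positive without the female proximal (0.20) or female middle library (0.01). Cyp2d22, Cyp4f17 and Cyp4v3, whose sexes had opposite signs there, were among the genes not followed. The cause was not tested. Other pseudocounts, filters and scalings moved the median of all genes by under 0.1. Depth limits what can be said of genes near 1 FPKM, and near-identical copies limit the Cyp2c and Cyp2d values.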
